A study of Mus musculus with 24 samples.

Results

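The clustered protocadherin genes lie in 3 neighbouring clusters, alpha, beta and gamma, on mouse chromosome 18. They were taken as the protein-coding genes of GENCODE M1, an annotation of the mm9 genome, on that chromosome whose names begin with Pcdha, Pcdhb or Pcdhg. These were 24 of 22380 protein-coding genes, namely 2 entries of the alpha cluster, 21 of the beta cluster and 1 of the gamma cluster. The annotation joins many first exons under a single gene name. The Pcdha11 entry has 10 transcripts and so does the Pcdhgc5 entry, and the 24 entries together hold 40 variable exons, of which 10 are alpha, 21 beta and 9 gamma exons. A further 18 variable exons belong to the same clusters. Of these 17 have no entry and were located in the mm9 sequence as open reading frames of at least 600 codons, and Pcdhb20 is annotated as a pseudogene. With these the clusters had 14, 22 and 22 variable exons, 58 in all, and results are given for the 40 members and for all 58.

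Clustered protocadherins are cell adhesion proteins of neurons. In the alpha and gamma clusters each variable exon has its own promoter and encodes the extracellular part, the membrane segment and a short stretch behind it of a single protein, and splicing joins it to constant exons at the end of the cluster that encode the shared cytoplasmic end. Beta genes consist of a variable exon only. Individual neurons are known to transcribe a small and largely random choice of these exons, under the control of the DNA-binding factor CTCF, cohesin, a distant enhancer and DNA methylation of the promoters, whereas the exons of the C type at the end of the alpha and gamma clusters are known for more uniform use.

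The samples were CCE cells and fetal heads (FH). CCE is a feeder-independent mouse embryonic stem cell line of strain 129/SvEv. It was differentiated by removing LIF and adding 0.266 uM retinoic acid, and RNA was taken at day 5. FH were dissected from FVB/N mice at 14.5 dpc and hold brain beside muscle, skin, skeleton and blood. No sample was genetically altered, and the tissues therefore differed in strain as well as in origin. RNA was depleted of ribosomal RNA with RiboMinus in 14 libraries and with Ribo-Zero in 2 libraries. For RiboMinus 4 CCE and 3 FH cDNA preparations, 7 in all, were made by cDNA-shearing or RNA-hydrolysis and each sequenced at Vienna-IMP and at Nijmegen. The paper states that both methods were used on the same depleted RNA. Sheared and hydrolysed preparations of the same number are therefore not independent, and the fit took them as separate. The second hydrolysed FH preparation went through 2 rounds of depletion and the others through 1. The CCE preparations were technical replicates and no separate animals are stated for FH, so that p values measure the spread between these preparations only. The Ribo-Zero libraries, 1 per tissue and sequenced at Vienna-CeMM, came from other RNA.

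RiboMinus libraries held 920424 to 2473448 unique tags. After summing both locations the CCE preparations held 2705085 to 3992090 and the FH preparations 1888761 to 4322418, and the Ribo-Zero libraries held 28708715 in CCE and 48426051 in FH. Levels are RPKM values, that is tags per kb of exon, scaled to the unique tags of a library. Values by preparation are given in the order sheared 1, hydrolysed 1, sheared 2 and hydrolysed 2 for CCE and sheared 1, hydrolysed 1 and hydrolysed 2 for FH. Whether the numbers of hydrolysed preparations name the same material at both locations is in doubt. The log2 ratio of number 1 to number 2 had an r between locations of -0.690 in hydrolysed CCE and -0.583 in hydrolysed FH libraries, against 0.648 in sheared CCE libraries, over 5322 to 6241 features with at least 20 tags in each library of the tissue. With the hydrolysed numbers crossed at Nijmegen 33 members were called, as without crossing. Neuronal markers stood at a summed 562 to 841 RPKM in FH against 43.5 to 53.7 in CCE, and 10 of the 11 with an annotated symbol were higher in FH, as were 6 of 7 markers of neural progenitors. The progenitor sum was 309 to 603 RPKM in FH and 555 to 1378 in CCE, most of it Vim, which was lower in FH, and Sox2, called higher, was at 42.7 RPKM in CCE and 21.4 in FH with Ribo-Zero. Of pluripotency markers 5 of 5 tested were lower in FH, where their sum was between 0 and 0.140 RPKM against 36.4 to 50.2 in CCE. Markers of primitive endoderm summed to 425 to 575 RPKM in CCE against 124 to 136 in FH, and 9 of 11 were lower in FH. Of all features tested 24.2% were higher and 26.6% lower in FH. The labelled tissues thus differed in their cell types, and in bulk RNA fewer cells of a type cannot be told apart from less RNA per cell.

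The alpha cluster was nearly silent in CCE, the beta cluster was low, and the gamma cluster was clearly transcribed in both tissues. On mm9 the alpha cluster spans chr18:37089939-37347311 with its constant exons, the beta cluster chr18:37424652-37681073 and the gamma cluster chr18:37821599-38001527. Annotated variable exons were counted whole, up to 7131 bases in the longest beta exon. The 17 exons without an entry were counted over their open reading frame alone, from 2232 bases in Pcdhgb8, so that any untranslated part of these exons is left out.

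The summed level of the 14 alpha variable exons was 0.549, 0.517, 1.20 and 0.369 RPKM in the CCE preparations and 46.5, 26.8 and 30.8 RPKM in the FH preparations. The means were 0.658 ± 0.369 (SD, n = 4) and 34.7 ± 10.4 (SD, n = 3). The whole cluster had 20 tags in the pooled CCE libraries against 780 in FH, a ratio at equal depth of 51.3 with a 95% counting interval of 33.0 to 84.4. In the Ribo-Zero libraries the sums were 0.293 and 19.2 RPKM and the ratio was 63.7 (41.6 to 103). These intervals cover counting error only, since tags were not marked as separate molecules.

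The 22 beta variable exons summed to 5.72, 5.13, 4.21 and 4.60 RPKM in CCE and to 36.2, 44.6 and 40.8 RPKM in FH. Means were 4.91 ± 0.656 (SD, n = 4) and 40.5 ± 4.21 (SD, n = 3), and at equal depth tags were 8.65 times as many in FH (7.51 to 10.0). The Ribo-Zero sums were 2.29 and 31.9 RPKM, with a ratio of 14.9 (13.1 to 16.96). Both depletion methods thus placed the beta cluster higher in FH, and the ratio was larger with Ribo-Zero than the RiboMinus counting interval spans. That interval leaves out the spread between preparations, so it does not show that the methods differ.

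The 22 gamma variable exons summed to 52.5, 68.8, 69.2 and 64.9 RPKM in CCE and to 112, 118 and 125 RPKM in FH. Means were 63.9 ± 7.79 (SD, n = 4) and 118 ± 6.25 (SD, n = 3), and at equal depth tags were 1.89 times as many in FH (1.78 to 1.99). In Ribo-Zero libraries the sums were 56.9 and 105 RPKM and the ratio 1.86 (1.79 to 1.92). For each of the 3 clusters the lowest FH preparation lay above the highest CCE preparation.

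**Figure D1:**
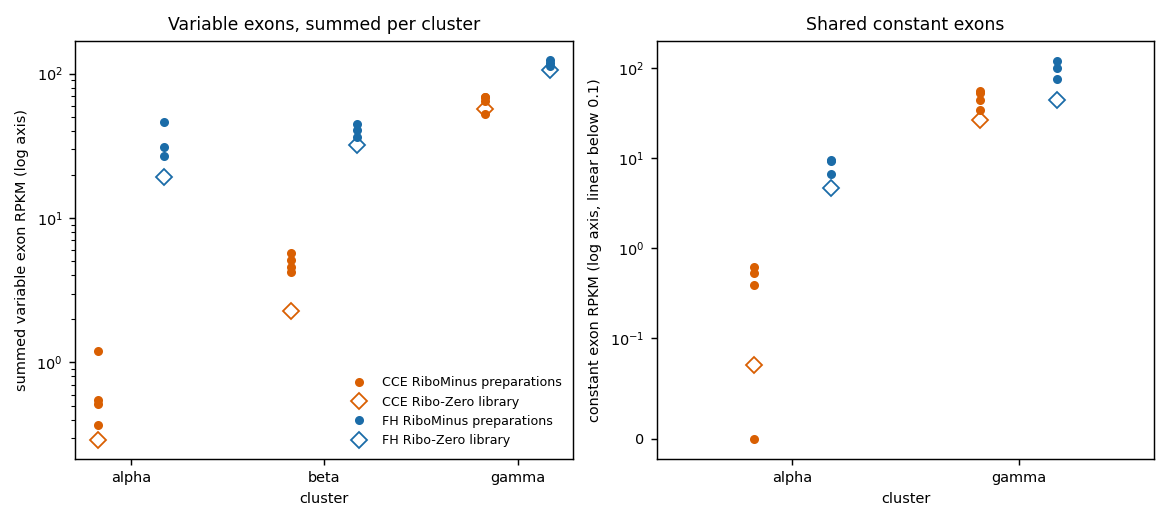
Summed variable exon RPKM of the alpha, beta and gamma clusters (left, log axis) and RPKM of the shared constant exons of the alpha and gamma clusters (right, log axis, linear below 0.1). Filled points are the 4 CCE and 3 FH preparations and open diamonds the Ribo-Zero libraries; the alpha sums of FH lie between 26.8 and 46.5 RPKM and those of CCE between 0.369 and 1.20 RPKM, while the gamma sums differ least between the tissues.

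The constant exons gave a second, separately counted measure of the same mRNAs. The 3 alpha constant exons together hold 2860 bases and the 3 gamma constant exons 2119 bases. Alpha constant exons were at 0, 0.526, 0.388 and 0.623 RPKM in CCE and at 6.66, 9.23 and 9.55 RPKM in FH, and Ribo-Zero gave 0.0731 and 4.71 RPKM. The difference was 4.72 ± 0.60 in log2 (SE) with an adjusted p of 7.99e-05 in limma. It was 3.94 without the sheared preparation 1 of CCE, which had 0 tags, and likewise 3.94 in hydrolysed preparations alone, and was called in both cases. Gamma constant exons were at 34.4, 55.1, 44.0 and 53.1 RPKM in CCE and at 74.5, 100.1 and 118 RPKM in FH, with 26.1 and 44.0 RPKM in Ribo-Zero libraries. Their difference was 1.07 ± 0.23 in log2 (SE) with an adjusted p of 0.00297. Every FH preparation was above every CCE preparation for both sets of constant exons.

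An alpha or gamma mRNA carries a single variable exon together with the constant exons, so the constant level can be set against the sum of the variable exons. For the gamma cluster this quotient was 0.728 ± 0.096 (SD, n = 4) in CCE and 0.821 ± 0.145 (SD, n = 3) in FH. The difference of 0.17 ± 0.18 in log2 (SE) had an exact two-sided permutation p of 0.4, where 35 arrangements allow no value under 0.0571. The arrangements did not keep sheared and hydrolysed preparations apart, although the quotient differed between them. Among sheared preparations FH stood at 0.664, slightly over the CCE values of 0.656 and 0.635. Among hydrolysed ones FH stood at 0.850 and 0.951, over the CCE values of 0.801 and 0.819. The p of 0.4 therefore does not show that the tissues were alike. With Ribo-Zero the quotient was 0.459 in CCE and 0.418 in FH. For the alpha cluster in FH it was 0.143, 0.345 and 0.310, with 0.246 in the Ribo-Zero library, so the alpha constant exons, as a set, held fewer tags per kb than the sum of their variable exons in every FH preparation. The third constant exon makes up 2712 of the 2860 bases and stood at 7.67 ± 2.25 RPKM (SD, n = 3) in FH. The short first and second constant exons stood higher there, at 20.8 ± 28.6 and 25.1 ± 10.7 RPKM (SD, n = 3) from 8 and 23 tags, but not in the FH Ribo-Zero library, with 2.10 and 4.18 RPKM against 4.78 in the third. The quotient thus rests mainly on the third exon, of which 308 bases are coding. The paper reports that untranslated parts lost tags relative to coding exons in its libraries. The cause of the low alpha quotient was not tested. In CCE the alpha constant exons had 15 tags and the variable exons 20, too few for a quotient.

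Among single variable exons, 33 of the 38 members tested were higher in FH at an adjusted p under 0.05 in limma and 0 were lower. Of all 15367 features tested, 24.2% were higher and 26.6% lower in FH. Over all 58 variable exons 55 were tested, 43 were higher, 0 were lower and 12 were not called, and 0 were lower at an unadjusted p under 0.05 or in limma on log2(RPKM + 1). The median difference was 3.02 in log2 for these 55 and 3.47 for the 38 members, against -0.16 over all features. Most alpha and beta exons passed the minimum of 10 tags through their FH tags alone. Without that minimum 34 of 40 members and 45 of 58 variable exons were higher and 0 were lower, against 4006 higher and 4049 lower of all 22416 features. Without overlap between the tissues, every FH preparation stood above every CCE preparation for 44 of the 55 tested exons, against 24.2% of all features. In the Ribo-Zero libraries FH was above CCE for 43 of the 43 called exons and for 56 of all 58. The matching share of all features was not determined, and each tissue had 1 such library, so these counts are a description only. Another scaling of the libraries, by the median of ratios, shifted the median of all features by 0.25 in log2 and turned the calls over all features from 3723 higher and 4093 lower to 4305 and 2938, or from 47.6% to 59.4% higher. Under it 45 of the 58 variable exons were called higher and 0 lower, against 28.0% and 19.1% of all features.

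**Figure D2:**
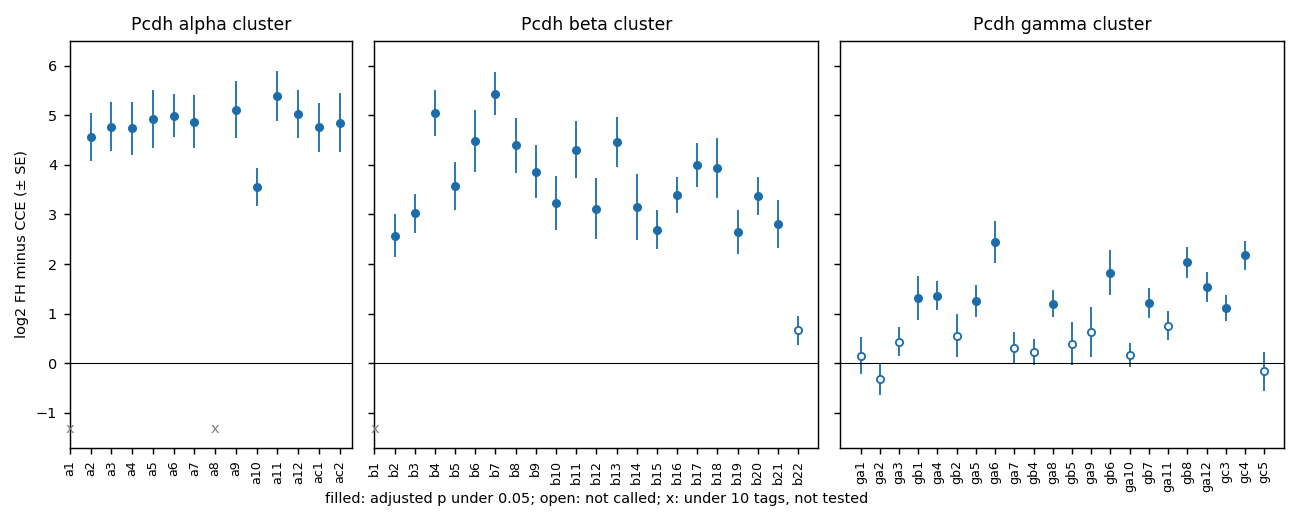
Difference between FH and CCE in log2 (vertical axis, with SE) for each variable exon of the alpha, beta and gamma clusters in chromosomal order. Filled points passed an adjusted p of 0.05, open points did not, and crosses mark exons with under 10 tags that were not tested; called differences run from 3.56 to 5.38 in alpha, from 2.57 to 5.43 in beta and from 1.11 to 2.44 in gamma.

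In the alpha cluster 12 of 14 variable exons were tested and 12 were higher in FH, against 24.2% of all features. Their differences lay between 3.56 and 5.38 in log2. The median was 4.86, or 4.41 with the 6 exons that had 0 CCE tags placed at their lower bound. In CCE 7 of the 14 exons had 0 tags in every preparation. The 2 exons not tested were Pcdha1, the first of the cluster, and Pcdha8. Each of the 12 tested exons had under 10 tags in CCE and passed the minimum only through FH. Without the minimum 14 of 14 alpha exons were higher in FH, against 4006 of all 22416 features.

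Pcdhac2, the last alpha exon and of the C type, was the highest alpha exon per kb of whole exon in all 3 FH preparations and in the FH Ribo-Zero library. It stood at 7.65, 3.89 and 4.06 RPKM in FH and at 0.131, 0.0978, 0.433 and 0 RPKM in CCE. The FH values do not overlap those of CCE, and the difference was 4.84 ± 0.59 in log2 (SE), adjusted p 6.31e-05. The Ribo-Zero libraries gave 2.88 and 0.177 RPKM. Pcdhac1, the other alpha exon of the C type, was at 2.39, 2.10 and 2.18 RPKM in FH, close to the median alpha exon, and had 1 tag in the pooled CCE libraries. Its difference was 4.76 ± 0.49 in log2 (SE), adjusted p 2e-05, and 3.52 at Vienna-IMP alone. The ratio of tags was 69.7 with a counting interval of 12.0 to 2.80e+03.

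Pcdha10 was the highest alpha exon in 3 of 4 CCE preparations, with 0.281, 0.315, 0.310 and 0.125 RPKM from 8 tags in all. In hydrolysed preparation 2 this was in effect a tie, since Pcdha8 stood at 0.124 RPKM there from 1 tag. In FH Pcdha10 had 3.56, 3.39 and 3.79 RPKM, and the FH preparations lay close together. Its difference of 3.56 ± 0.38 in log2 (SE) was the smallest called one of the cluster. With Ribo-Zero the CCE level of Pcdha10 was 0.0292 RPKM from 2 tags, and there Pcdhac2 was the highest CCE exon with 13 tags.

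Pcdha9, Pcdha11 and Pcdha12 had the largest fitted differences, 5.11, 5.38 and 5.02 in log2. That of Pcdha12, with 0 RiboMinus tags in CCE, depends on the prior count, and its rank is not fixed. Pcdha11 had 1 tag in CCE and 82 in FH, a ratio of 108 with a counting interval of 18.8 to 4.31e+03. Its FH preparations stood at 4.20, 3.15 and 3.38 RPKM. Pcdha12 had 0 tags in CCE and 49 in FH, which makes it at least 21.5-fold higher in FH against a floor of 3 tags over the pooled CCE libraries. Its FH preparations were at 3.10, 1.46 and 2.13 RPKM. Pcdha9 stood at 5.76, 2.71 and 3.54 RPKM in FH and had 2 tags in CCE. Of these 3 exons none had more than 1 tag in the CCE Ribo-Zero library, where the FH library held 153 to 302 tags.

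Pcdha7 was at 4.59, 2.44 and 3.25 RPKM in FH and at 0, 0.103, 0.153 and 0 RPKM in CCE, a difference of 4.87 ± 0.53 in log2 (SE). Pcdha2, Pcdha3, Pcdha4, Pcdha5 and Pcdha6 had 0 tags in CCE with either depletion, and lower bounds of 15.3- to 21.0-fold in RiboMinus and 17.4- to 29.6-fold in Ribo-Zero libraries. In FH they ranged from 1.48 to 2.04 RPKM in the pooled RiboMinus libraries. Pcdha1 was the lowest alpha exon in the pooled FH libraries, with 0.222, 0.226 and 0.194 RPKM from 5 tags. In the sheared preparation Pcdha8 was slightly lower, at 0.2212 against 0.2217 RPKM. Pcdha8 had 0.337 RPKM in the pooled RiboMinus libraries of FH and 0.983 RPKM with Ribo-Zero, and it is named here after its values were seen.

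**Figure D3:**
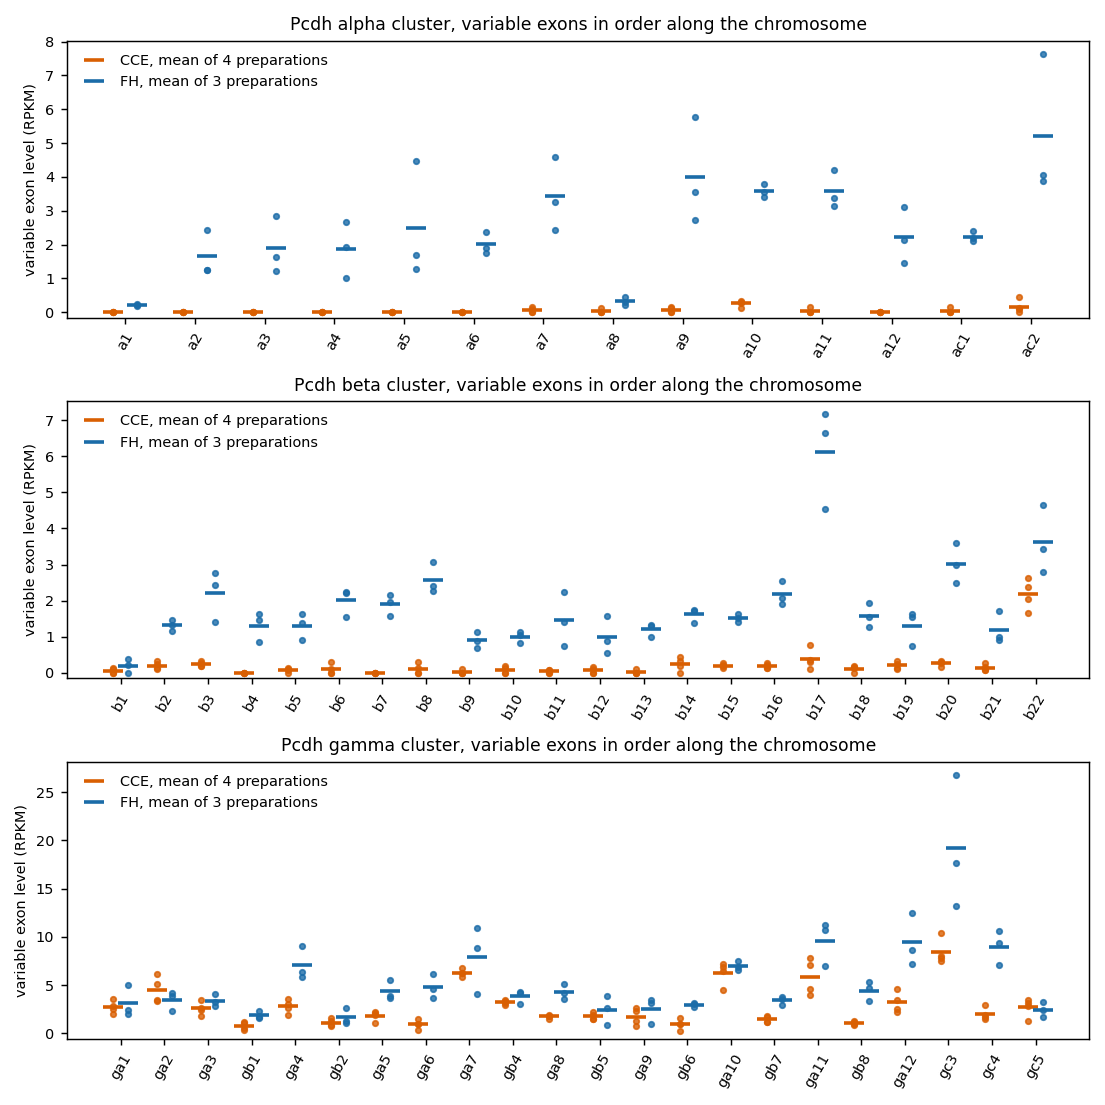
RPKM of each variable exon (vertical axis) in chromosomal order (horizontal axis) in 3 panels for the alpha, beta and gamma clusters. Points are the 4 CCE and 3 FH preparations and bars their means; the alpha exons of CCE lie at or near 0, Pcdhb22 stands out among the beta exons of CCE, and Pcdhgc3 is the highest gamma exon in both tissues.

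In the beta cluster 21 of 22 exons were tested, 20 were higher in FH and 0 lower, with called differences between 2.57 and 5.43 in log2 and a median of 3.38 over the 21. The exception among the tested exons was Pcdhb22, the last of the cluster. Pcdhb22 had 2.62, 2.37, 2.05 and 1.65 RPKM in CCE and 4.66, 3.42 and 2.79 RPKM in FH. The FH values lay above the CCE values, but the difference of 0.66 ± 0.29 in log2 (SE) had an adjusted p of 0.0787. It passed the threshold with the scaling by the median of ratios, at 0.91, and with fragmentation as a covariate, at 0.75. In Ribo-Zero libraries Pcdhb22 was at 0.886 RPKM in CCE and 2.69 RPKM in FH, a ratio of 3.04 (2.38 to 3.93).

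Pcdhb22 was the highest beta exon in all 4 CCE preparations and made up 35.8% to 48.7% of the summed beta level there, and 38.7% in the Ribo-Zero library. The next exon in CCE was Pcdhb17 in the pooled libraries, at 0.422 RPKM. In FH Pcdhb17 led in 2 of 3 preparations and in the Ribo-Zero library, and Pcdhb22 led in the sheared one, at 4.66 against 4.53 RPKM. Pcdhb17 was at 0.307, 0.766, 0.113 and 0.363 RPKM in CCE and at 4.53, 7.17 and 6.65 RPKM in FH. Its groups do not overlap, the difference was 4.00 ± 0.44 in log2 (SE), adjusted p 3.19e-05, and Ribo-Zero gave 0.213 and 4.41 RPKM. Pcdhb20, the exon of the annotated pseudogene, was the third highest beta exon in the pooled RiboMinus libraries of both tissues, with 0.298, 0.149, 0.329 and 0.265 RPKM in CCE and 2.99, 3.60 and 2.47 RPKM in FH. Its difference of 3.37 ± 0.38 in log2 (SE) lay close to the median of the cluster. With Ribo-Zero it was at 0.031 and 1.17 RPKM, lower among the beta exons.

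The largest fitted beta differences were those of Pcdhb7, Pcdhb4 and Pcdhb6. The first 2 had 0 RiboMinus tags in CCE, so that their fitted values depend on the prior count and their rank is not fixed. Pcdhb7 had 0 CCE tags with either depletion and was at 1.96, 2.15 and 1.58 RPKM in FH, which makes FH at least 28.5-fold higher with RiboMinus, and at least 39.9-fold with Ribo-Zero. Pcdhb4 had 0 tags in the CCE RiboMinus libraries and 52 in FH, at least 22.8-fold higher, with 2 tags in the CCE Ribo-Zero library. Pcdhb6 was at 0.295, 0, 0.109 and 0 RPKM in CCE and at 1.55, 2.21 and 2.24 RPKM in FH, a difference of 4.48 ± 0.63 in log2 (SE). Its CCE tags came from the sheared preparations only, 4 tags in all. The difference was 5.82 in hydrolysed preparations alone, and 3.98 to 5.03 leaving out each CCE preparation. Pcdhb1, the first beta exon and the lowest in FH, had 2 tags in CCE and 6 in FH and was not tested. The remaining 15 beta exons, from Pcdhb2 to Pcdhb21, had 0.0208 to 0.243 RPKM in the pooled CCE libraries and 0.863 to 2.67 RPKM in FH.

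The gamma cluster differed in that 11 of its 22 variable exons were higher in FH and 11 were not called, all 22 having been tested. Of all features 24.2% were higher. Called differences lay between 1.11 and 2.44 in log2 and the uncalled between -0.32 and 0.76, with a median of 0.93 over the cluster. The 11 called exons were those in which every FH preparation stood above every CCE preparation, as held for 24.2% of all features. They were Pcdhga4, Pcdhga5, Pcdhga6, Pcdhga8 and Pcdhga12 of 12 exons of the A type, Pcdhgb1, Pcdhgb6, Pcdhgb7 and Pcdhgb8 of 7 exons of the B type, and Pcdhgc3 and Pcdhgc4 of 3 exons of the C type. With the scaling by the median of ratios 12 were called, against 28.0% of all features higher.

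The summed level of the A type exons was 40.4 ± 5.29 RPKM (SD, n = 4) in CCE and 66.9 ± 8.12 (SD, n = 3) in FH. B type exons summed to 10.3 ± 1.03 RPKM and 20.6 ± 2.98, and the gamma exons of the C type to 13.1 ± 2.07 and 30.7 ± 5.97. Ribo-Zero gave 24.1 and 45.8 RPKM for the A type, 9.34 and 23.1 for the B type, and 23.5 and 36.3 for the C type. For each type the lowest FH preparation was above the highest CCE preparation.

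Pcdhgc3 was the highest gamma exon in all 7 preparations and in both Ribo-Zero libraries. It had 7.82, 7.51, 10.4 and 7.98 RPKM in CCE and 26.8, 13.2 and 17.7 RPKM in FH, and the difference was 1.11 ± 0.27 in log2 (SE), adjusted p 0.00505. In Ribo-Zero libraries it was at 20.3 and 29.2 RPKM, a ratio of 1.44 (1.35 to 1.53). Its share of the summed gamma level was 10.9% to 14.97% in the CCE preparations and 35.6% in the CCE Ribo-Zero library, and 11.2% to 23.9% and 27.7% in FH. The sheared FH preparation gave the highest RiboMinus level, and in CCE the Ribo-Zero level of 20.3 RPKM stood against 8.30 RPKM in the pooled RiboMinus libraries.

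Pcdhgc4 was at 1.73, 2.93, 1.91 and 1.43 RPKM in CCE and at 7.11, 10.6 and 9.32 RPKM in FH. The groups lay far apart, with a difference of 2.18 ± 0.29 in log2 (SE), adjusted p 0.000123, and Ribo-Zero levels of 1.06 and 5.59 RPKM. Pcdhgc5, the last exon of the cluster, was at 1.29, 3.19, 3.43 and 2.87 RPKM in CCE and at 3.27, 1.66 and 2.41 RPKM in FH. Its tissues overlapped, and the difference was -0.16 ± 0.39 in log2 (SE), adjusted p 0.754. With Ribo-Zero it was lower in FH, at 1.56 against 2.18 RPKM, a ratio of 0.717 (0.58 to 0.889).

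Pcdhga6 had the largest gamma difference, 2.44 ± 0.43 in log2 (SE), adjusted p 0.000698. It was at 0.945, 1.01, 0.298 and 1.44 RPKM in CCE and at 3.63, 4.56 and 6.15 RPKM in FH. Pcdhgb8 followed Pcdhgc4, with 0.900, 1.23, 1.16 and 0.932 RPKM in CCE, 3.32, 4.71 and 5.29 RPKM in FH and a difference of 2.03 ± 0.32 in log2 (SE), adjusted p 0.000338. In the pooled libraries both lay under the cluster's median of 2.31 RPKM in CCE and over its median of 3.95 RPKM in FH.

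Several gamma exons that were high in CCE were not called. Pcdhga10 was at 4.46, 7.18, 6.86 and 6.47 RPKM in CCE and at 7.48, 6.52 and 6.91 RPKM in FH, a difference of 0.16 ± 0.24 in log2 (SE), adjusted p 0.602. Pcdhga7 was at 6.72, 6.26, 6.21 and 5.84 RPKM in CCE and at 4.12, 10.9 and 8.81 RPKM in FH, adjusted p 0.422. Its difference was 0.31 in log2, 0.68 and called in hydrolysed preparations alone, 0.64 and called without FH preparation 1, and 0.045 without FH preparation 2. Pcdhga11 was at 4.00, 7.05, 4.56 and 7.78 RPKM in CCE and at 6.94, 10.7 and 11.2 RPKM in FH, a difference of 0.76 ± 0.29 in log2 (SE), adjusted p 0.0519. It was called under 9 of the 22 alternatives, among them the scaling by the median of ratios at 1.00 and hydrolysed preparations alone at 0.57. All 3 overlapped between the tissues in RiboMinus preparations, and with Ribo-Zero FH was above CCE for each, at 5.40 against 2.80, 4.24 against 2.18 and 5.86 against 1.87 RPKM. The hydrolysed preparations gave the higher values of Pcdhga11 in both tissues.

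Pcdhga1, the first gamma exon, was at 2.48, 2.78, 1.98 and 3.54 RPKM in CCE and at 1.96, 4.98 and 2.38 RPKM in FH, adjusted p 0.75. Its direction turned without the hydrolysed preparation 1 of FH, to -0.26 in log2. Pcdhgb2 was the lowest gamma exon of the pooled FH libraries, with 1.08, 2.64 and 1.23 RPKM against 1.23, 0.820, 0.756 and 1.58 RPKM in CCE, adjusted p 0.3. Pcdhga2, named after its values were seen, was lower in FH with Ribo-Zero, at 2.81 against 4.03 RPKM, a ratio of 0.697 (0.593 to 0.819). In RiboMinus preparations its difference was -0.32 ± 0.31 in log2 (SE), adjusted p 0.428. Pcdhga2 and Pcdhgc5 were the only exons of the 58 with a lower FH than CCE level in the Ribo-Zero libraries.

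**Figure D4:**
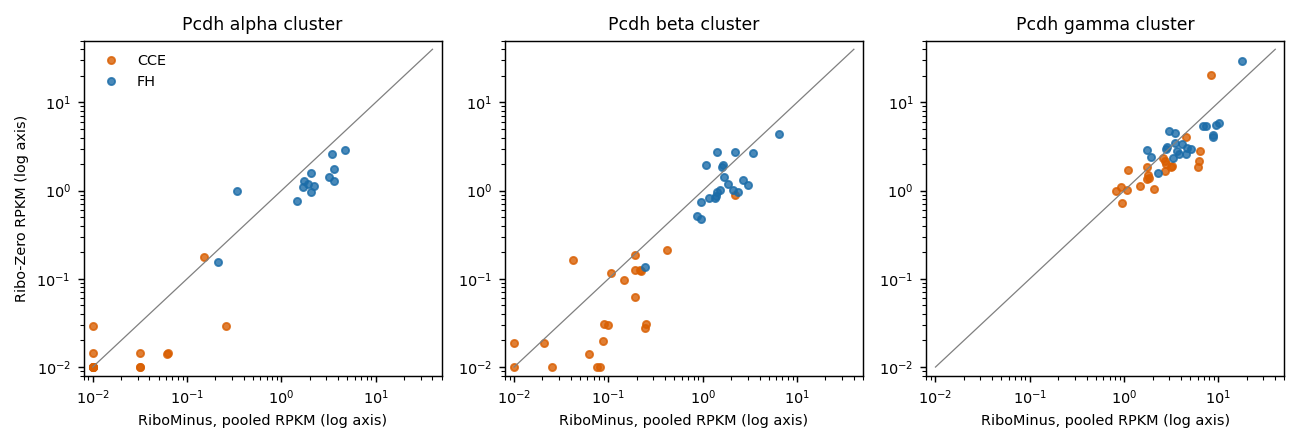
Ribo-Zero RPKM (vertical, log axis) against pooled RiboMinus RPKM (horizontal, log axis) of each variable exon in CCE and FH, by cluster; values under 0.01 are drawn at 0.01 and the line marks equal values. Most alpha exons of FH and most beta exons lie under the line, and the highest gamma point of each tissue, Pcdhgc3, lies above it at 20.3 against 8.30 RPKM in CCE and 29.2 against 17.7 RPKM in FH.

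The ranking of exons within a cluster was partly shared between depletion methods. Across the exons of a cluster, Spearman's rho of the FH levels in RiboMinus and Ribo-Zero libraries was 0.811 in alpha (14 exons), 0.704 in beta (22) and 0.682 in gamma (22). In CCE it was 0.564 in alpha, 0.707 in beta and 0.848 in gamma. Between FH preparations it ran from 0.741 to 0.912 in alpha, 0.579 to 0.886 in beta and 0.636 to 0.879 in gamma. Between CCE preparations, with few alpha and beta tags, it ran from 0.277 to 0.766, 0.269 to 0.748 and 0.763 to 0.930. These are descriptions over exons, which share libraries, depth and sequence. Between FH and CCE the rho was 0.738 in alpha, 0.603 in beta and 0.586 in gamma with RiboMinus, and 0.595, 0.833 and 0.193 with Ribo-Zero.

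FH RNA spread over nearly all exons of each cluster. The effective number of exons, the exponential of the entropy of their shares in the summed level, was 11.7 ± 0.14 (SD, n = 3) of 14 in alpha, 18.2 ± 0.26 of 22 in beta and 17.4 ± 1.97 of 22 in gamma. With Ribo-Zero it was 12.4, 17.99 and 15.7. In CCE the beta cluster had an effective number of 7.94 ± 1.41 (SD, n = 4), well under the 3 FH preparations, and the gamma cluster 17.3 ± 0.51. The beta values rest on unlike tag numbers, 224 in all in CCE and 1474 in FH. In the pooled libraries the beta number was 9.14 in CCE and 18.5 in FH. The Ribo-Zero values of CCE were 9.19 in beta and 12.9 in gamma.

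All 14 alpha exons had a tag in FH and 7 had one in CCE, where the cluster had 20 tags. Drawing 20 tags from those of FH would on average show 9.73 alpha exons, so part of the difference in number goes with the low tag count of the cluster in CCE. The pooled RiboMinus libraries held 13049762 unique tags in CCE and 9924914 in FH. In beta 20 of 22 exons had a tag in CCE and 22 in FH, of which 21.6 were expected at the 224 tags of CCE. All 22 gamma exons had tags in both tissues. Bulk RNA sums over many cells, and the choice made by a single cell was not measured.

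Levels followed the order along the chromosome to different degrees. In FH, Spearman's rho of the pooled level with the position in the cluster was 0.771 in alpha, 0.325 in beta and 0.361 in gamma, and 0.741, 0.689 and 0.450 with Ribo-Zero. By FH preparation the alpha rho was 0.420, 0.714 and 0.758. The alpha order was not strict, since Pcdhac1, the last but for Pcdhac2, stood under Pcdha2, Pcdha3, Pcdha4 and Pcdha5 in the sheared FH preparation. In CCE rho was 0.128 in gamma, with -0.037 in Ribo-Zero, and 0.5004 in beta, with 0.611.

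How many tags an exon can receive also changed along the clusters. Variable exons resemble each other, and only tags with a single place in the genome were kept. A median of 80.3% of the 36-base windows of alpha exons were unique, against 91.4% in beta and 97.4% in gamma. The share of windows without another variable exon within 2 mismatches was 65.9% at the median in alpha, from 37.9% in Pcdha7, 75.4% in beta and 86.8% in gamma. Positions without such a near match held 5.86 RiboMinus tags per 100 positions, unique positions with a near match held 1.03, and positions that were not unique held 0. Ribo-Zero tags, read to 51 bases, gave 19.5, 1.29 and 0. Levels of the variable exons with many near matches were thus measured from fewer positions than their length gives. In Pcdhac1 and Pcdhac2 100% of the 36-base windows had no near match, against 67.2% in Pcdha9, 69.6% in Pcdha10 and 68.3% in Pcdha11. The place of Pcdhac1 and Pcdhac2 among the alpha exons given above does not allow for this. Across exons the FH level had a rho with the share of windows without a near match of 0.634 in alpha, -0.039 in beta and 0.633 in gamma. On positions without a near match alone, the rho of level and order in FH fell from 0.771 to 0.455 in alpha and from 0.325 to 0.089 in beta. The strains of both tissues differ from that of the reference genome, and the effect of strain on unique alignment was not tested.

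RNA between the exons of the clusters was measured in gaps of at least 500 bases, 1000 bases away from the exons on either side and free of other annotated exons. FH had RNA in the gaps of all 3 clusters and CCE mainly in those of gamma. The 13 alpha gaps, of which the last lies between Pcdhac2 and the constant exons, held 1 tag in the pooled CCE libraries and 443 in FH, with 0.166, 0.327 and 0.276 RPKM in the FH preparations. The 14 beta gaps held 9 tags in CCE and 163 in FH, or 0.0957, 0.152 and 0.124 RPKM in FH. The 15 gamma gaps were at 0.110, 0.315, 0.0929 and 0.261 RPKM in CCE and at 0.466, 0.880 and 0.901 RPKM in FH. Gamma gaps were higher in the hydrolysed than in the sheared preparations of either tissue, and higher in FH than in CCE within each kind of fragmentation. With Ribo-Zero the gaps of alpha, beta and gamma stood at 0.408, 0.213 and 1.17 RPKM in FH and at 0.0015, 0.0041 and 0.312 RPKM in CCE.

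Variable exons were denser than the gaps by a factor of 8.46 in alpha, 14.4 in beta and 6.81 in gamma in the pooled FH libraries, and by 14.1 in gamma in CCE. By preparation the alpha factor of FH was 20.2, 5.87 and 8.02, and the gamma factor of CCE 21.6, 9.98, 34.1 and 11.3, so that sheared preparations gave the larger factors. Ribo-Zero factors were 3.37, 7.45 and 4.12 in FH and 8.32 for gamma in CCE. In every cluster the Ribo-Zero library of FH thus held more gap RNA relative to the exons. Gap density followed the chromosomal order in beta, with a rho of 0.612 in FH and 0.415 with Ribo-Zero, while in FH it was 0.033 in alpha and 0.068 in gamma.

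**Figure D5:**
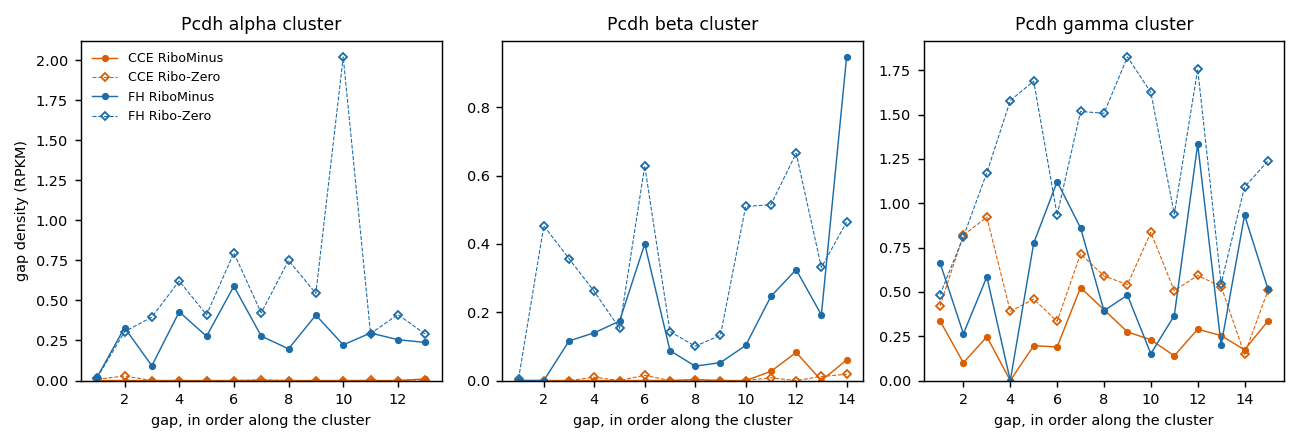
Density of tags (RPKM, vertical axis) in each gap, in order along the alpha, beta and gamma clusters (the last alpha gap lies between Pcdhac2 and the constant exons, the others between variable exons), for pooled RiboMinus and for Ribo-Zero libraries of CCE and FH, with a scale for each panel. The alpha and beta gaps of CCE lie at or near 0, and the gap between Pcdha11 and Pcdha12 stands out in the FH Ribo-Zero library at 2.02 RPKM.

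Other genes tied to these clusters were followed as lists. Of the 12 protocadherins outside the clusters with an annotated symbol, 10 were higher in FH and 0 lower, with 0 lower also at an unadjusted p under 0.05 or in limma on log2(RPKM + 1). Over all features 24.2% were higher and 26.6% lower. The median difference of the list was 3.36 in log2. The nonclustered Pcdh10, known from the nervous system, had 0.146 ± 0.114 RPKM (SD, n = 4) in CCE and 9.57 ± 2.88 (SD, n = 3) in FH, a difference of 6.07 ± 0.44 in log2 (SE). Pcdh8 and Pcdh9 differed by 5.52 and 5.15 in log2. Pcdh1 and Pcdh18 were not called, with adjusted p of 0.0709 and 0.696, and Pcdh1 was called with the scaling by the median of ratios.

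Most regulators of the clusters were not called. Of 16 listed regulators 1 was higher in FH and 5 were lower, with a median of -0.52 in log2, and with the scaling by the median of ratios 1 was higher, 2 were lower and the median was -0.28. Of all features 24.2% were higher and 26.6% lower, and 28.0% and 19.1% with the other scaling. The regulators called higher were 6.25% of the list, and the difference from all features was not tested. Ctcf, whose protein links promoters and enhancers of these clusters, was at 22.6 ± 5.97 RPKM (SD, n = 4) in CCE and 13.4 ± 4.14 (SD, n = 3) in FH, lower by a log2 difference of -0.74, adjusted p 0.0483. With the other scaling the difference of Ctcf was -0.50 with an adjusted p of 0.136, and the calls of Dnmt1 and Trim28, also lower here, were lost likewise. Dnmt3b, a DNA methyltransferase, and Rest, a repressor of neuronal genes, were lower with either scaling, at -2.12 and -1.27 here. Wiz was higher with either scaling, at 1.17 in log2 here, but was at 2.39 RPKM in CCE and 2.46 in FH with Ribo-Zero. The subunits of cohesin in the list were not called. With Ribo-Zero each of them was lower in FH, at 8.67 to 26.6 RPKM against 11.0 to 76.6 RPKM in CCE. Ctcf was likewise lower there, at 13.2 against 29.1 RPKM. So were most of the other listed regulators and most of the listed neighbouring genes on the chromosome. The share of all features lower in FH with Ribo-Zero was not determined, and each tissue had 1 such library. These Ribo-Zero values are therefore a description only.

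Of 16 tested partners and processing enzymes of the proteins 3 were higher, 5 were lower and 8 were not called, and the median was -0.21 in log2. Against 24.2% higher and 26.6% lower over all features these counts lay near the background. Cyfip2 and Abi2, parts of the WAVE complex that acts on actin, were higher in FH, as was the receptor kinase Ret. With Ribo-Zero Abi2 was lower in FH, at 17.95 against 20.97 RPKM. Among those lower were Cyfip1 and Nckap1 of the same complex, the kinase Ptk2b and Ncstn, a subunit of gamma-secretase. The 8 calls of the list held with the scaling by the median of ratios. Of 16 neighbouring genes on the chromosome 1 was higher, Fchsd1, and 8 were lower, with a median of -0.51 in log2, against 24.2% higher and 26.6% lower over all features. With the other scaling 1 was higher and 3 were lower, and the median was -0.26, against 28.0% and 19.1% over all features.

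Over the 7 preparations the genes whose log2 levels ran most like the alpha constant exons, of 15310 genes, were Ldb2, Arhgap31 and Rab39b, with Pearson's r of 0.999, 0.997 and 0.996. Those most like the gamma constant exons were Tspan7, BC005537 and Lsm14b, with r of 0.991, 0.989 and 0.988. With 4 preparations of one tissue and 3 of the other these values mostly follow the difference between the tissues, and they are given as a description.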

How the data were processed

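Per the labels and the study's methods, the authors aligned single tags with Bowtie (version not given in the sources used here) to mm9, allowed 2 mismatches in 36 bases and 3 in 51, kept tags with a single place, used no splice junctions and removed ribosomal and, for RiboMinus, mitochondrial tags beforehand. The deposited files list the coordinates of each unique tag, with a strand column that was not used. The paper states that its CCE data lack strand-specific information. The score column of the files, deposited by the authors, is constant within a library and was not used. Extra lanes and combined samples were left out.

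The midpoint of a tag assigned it to merged exons of protein-coding genes of GENCODE M1, to variable and constant exons of the clusters or to the gaps. Without strand-specific libraries, antisense RNA cannot be told apart. Variable exons missing from the annotation were found in the mm9 sequence, and the 58 names were matched to RefSeq names by position. Counts of both locations were summed per cDNA preparation. Features with at least 10 tags over 14 libraries were fitted with limma 3.58.1 (voom weights, R 4.3.3) on log2 CPM, with p values adjusted by the Benjamini-Hochberg method over 15367 features. The fit was tested on simulated data. Intervals are exact Poisson or conditional binomial intervals at 95%. Python 3.11.15 was used with scipy 1.17.1, pandas 2.3.3, numpy 2.4.6 and matplotlib 3.10.9.

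Named were the C type exons, the first and last exon of each cluster, in each cluster the 3 highest exons of either tissue and the lowest of FH, and the 3 largest called differences in each direction. Members and lists were chosen with earlier results of these data known. The symbols Pcdh21, Diaph1, Map2, Sox1 and Lamb1-1 were not matched. A listed gene is not reported here by name. Alternatives tried were another scaling, filters, limma on log2(RPKM + 1) and log2(RPKM + 0.1), a fragmentation covariate, repeated positions counted once, single locations, hydrolysed preparations only, hydrolysed numbers crossed at Nijmegen, each preparation left out, a block for the label number, other exon parts, unique positions and the Ribo-Zero libraries.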

Additional observations from a re-analysis of the deposited data

Results flagged for a closer look

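Single libraries or preparations stood apart from their group in 3 of 28 groups of 4 to 8 values checked, where chance alone gives about 1 in 20. The summed level of the alpha variable exons in the 8 CCE libraries was highest in the Nijmegen library of the second sheared preparation, at 1.73 RPKM against 0.664 RPKM in the next, a gap of 0.734 of the whole range. These exons had 20 tags over the 8 libraries, so this gap rests on few tags and counting error was not set apart. The alpha constant exons in the 6 FH libraries were lowest in the Nijmegen library of the sheared preparation, at 4.94 RPKM against 8.30 RPKM in the next, a gap of 0.712 of the range. Pcdhgc3 in the 4 CCE preparations was highest in the second sheared preparation, at 10.4 RPKM against 7.98 RPKM in the next, a gap of 0.835 of the range.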

How the results depend on the processing

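Between 32 and 35 members were called under every setting but a filter on a mean RPKM over 3, which left 12 members to test and called 10 (17 of all variable exons, against 43). Leaving out each preparation gave 33 to 34. The setting on unique positions could not change a member's call, since positions that were not unique held 0 tags. For alpha exons and the 17 exons without an entry, the coding part is the whole counted exon. Both settings are nevertheless counted among the following values. Of 499 values for 23 named members 479 kept direction and call, 13 passed the threshold that had not, and 7 turned: Pcdhga1 to -0.13 at Nijmegen and -0.26 without FH preparation 2 (up to 0.35 leaving out others), Pcdhga10 to -0.026 in hydrolysed preparations, and Pcdhgc5 to 0.072 by median of ratios, 0.11 at Nijmegen, 0.092 without FH preparation 2 (down to -0.46 leaving out others) and 0.024 for libraries 1 to 6. The cause was not tested for these or the following.

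The log2 ratio of the beta sums was 3.80 with Ribo-Zero and 3.74 without its mitochondrial tags, against 3.07. The log2 quotient of gamma constant to variable exons turned to -0.015 with repeated positions counted once, -0.13 with Ribo-Zero and -0.024 without the 3′ untranslated part. Exons over gaps in log2 were 1.75 (alpha), 2.90 (beta) and 2.04 (gamma) with Ribo-Zero in FH, and 3.66 for beta on unique positions. The rho of level and order in FH was 0.538 for alpha and 0.199 for beta at Vienna-IMP, 0.689 for beta with Ribo-Zero, and 0.455 and 0.089 on positions without a near match, and for gamma in CCE -0.037 with Ribo-Zero. The effective number was 12.4, 17.99 and 15.7 in FH and 12.9 for gamma in CCE with Ribo-Zero, 18.1 for beta at Vienna-IMP, and 18.5 for gamma in CCE without near matches.

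The gap rho of alpha in FH was 0.187 on unique positions, on positions without a near match and in hydrolysed preparations, 0.338 at Vienna-IMP, 0.0934 at Nijmegen, 0.148 with Ribo-Zero and 0.011 to 0.187 leaving out each preparation. For beta it was 0.415 and for gamma 0.182 with Ribo-Zero, and for gamma in CCE -0.054 at Vienna-IMP, 0.363 at Nijmegen, -0.107 with Ribo-Zero and 0.0643 to 0.297 leaving out each preparation.

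Same-numbered libraries of both tissues did not deviate together (r from -0.366 to 0.271 over 6 numbers). With the label number as a replicate block 34 members and 8558 features were called, and 34 and 8856 for the same libraries without a block. The comparison without a block, the positions without a near match and the sums over members alone were added after seeing the data. The low tag count limits what can be said of the alpha cluster in CCE, with 20 RiboMinus and 21 Ribo-Zero tags.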

Other observations

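The gap of 4978 bases between Pcdha11 and Pcdha12 held 487 tags in the FH Ribo-Zero library, or 2.02 RPKM, against 11 tags and 0.223 RPKM in the pooled FH RiboMinus libraries. It had 0 tags in CCE with either depletion. It lies within the span of the annotated minus-strand gene Gm10545, and the tags do not give the strand of the RNA. The longest gamma gap, 35869 bases between Pcdhga12 and Pcdhgc3, held 332 tags in the FH and 81 in the CCE RiboMinus libraries, or 0.933 and 0.173 RPKM, and 1.09 and 0.148 RPKM with Ribo-Zero.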
